A study of Homo sapiens with 4 samples.

Results

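Promoter accessibility of the 4 human HOX clusters was compared between wild-type (WT) HEK293T cells and HEK293T cells in which MORC2 had been knocked out (KO). Members were taken by symbol from a table of promoter counts: every HOXA, HOXB, HOXC and HOXD gene, every transcript named as antisense to one of them, and HOTAIR, HOTTIP, HOTAIRM1, HOXA-AS2, HOXA-AS3, HOXB-AS1 and HOXB-AS3. This gave 49 of the 28775 rows, of which 39 belong to HOX coding genes and 10 to antisense or other long noncoding transcripts. The HOXA cluster on chromosome 7 holds 17 of them, HOXB on chromosome 17 holds 12, HOXC on chromosome 12 holds 11 and HOXD on chromosome 2 holds 9.

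ATAC-seq, a method in which the transposase Tn5 inserts adapters into exposed DNA, was run on 2 WT and 2 MORC2 KO libraries of HEK293T, an aneuploid line derived from human embryonic kidney. MORC2 is an ATPase of the GHKL family that takes part in gene silencing with the HUSH complex. The KO libraries come from bulk pools of edited cells, each made with its own guide RNA, so that guide and KO replicate cannot be told apart and cells that escaped editing may remain in a pool. No other treatment or time point was included, and p-values measure the spread between these 4 libraries only. Each promoter is described in the study as a window of 2 kb around the start of a gene, so that counts of different promoters refer to windows of equal length. Values are normalised read counts (CPM), scaled between libraries by TMM, a method that assumes that most promoters do not differ.

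HOX genes encode homeodomain transcription factors that specify position along the body axis. Within a cluster the genes are numbered by paralogue position, from anterior genes, which are expressed early and towards the head, to posterior genes, which are expressed later and towards the tail. Their promoters are classical targets of the repressive Polycomb group and the activating Trithorax group, and each cluster is divided by CTCF and cohesin into domains that can be silent or active independently of each other. In cultured cells the set of HOX genes in use commonly reflects the position from which the cells came.

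Several members share a start region, and their counts are not independent. HOXC4, HOXC5 and HOXC6 had identical counts in each library, from which a shared outermost start was inferred. HOXC13 and HOXC13-AS, HOXB3 and HOXB-AS3, HOXA11 and HOXA11-AS, and HOXA13 and HOTTIP differed by at most 5% in every library. With rows that were shared in this way counted once, 42 distinct rows remained. The counts do not use strand, so a HOX gene and its antisense partner in 1 window cannot be told apart. In addition, a window was taken to lie at the outermost start, which is not stated for the deposited counts. The HOXA3 row stands between HOXA6 and HOXA7 in gene order. On this reading its level describes a start far upstream of the HOXA3 coding region. Likewise, the HOXB3 row stands beyond HOXB4, beside HOXB-AS3 and HOXB5.

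The promoter sequences of 6 members are shown because they span the range of accessibility, from the most accessible HOX row to the least accessible ones. They were taken from RefSeq on GRCh38.p14, run from 250 bases before to 50 bases after the gene start in the direction of transcription, and have every CpG dinucleotide in capitals. HOXC4, at chr12:54016638-54016937 on the plus strand, and HOXA13, at chr7:27200042-27200341 on the minus strand, belong to accessible promoters. HOXA2 at chr7:27102634-27102933 and HOXB1 at chr17:48530962-48531261, both on the minus strand, and HOXD4 at chr2:176151300-176151599 and HOXD10 at chr2:176116528-176116827, both on the plus strand, are 4 of the 5 least accessible members.
HOXC4: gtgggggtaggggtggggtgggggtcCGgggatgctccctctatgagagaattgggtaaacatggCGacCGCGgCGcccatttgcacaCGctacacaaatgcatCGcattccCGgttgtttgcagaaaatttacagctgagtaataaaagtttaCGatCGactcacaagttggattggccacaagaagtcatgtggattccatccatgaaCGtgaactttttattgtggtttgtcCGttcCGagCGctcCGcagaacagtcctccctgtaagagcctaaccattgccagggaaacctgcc
HOXA13: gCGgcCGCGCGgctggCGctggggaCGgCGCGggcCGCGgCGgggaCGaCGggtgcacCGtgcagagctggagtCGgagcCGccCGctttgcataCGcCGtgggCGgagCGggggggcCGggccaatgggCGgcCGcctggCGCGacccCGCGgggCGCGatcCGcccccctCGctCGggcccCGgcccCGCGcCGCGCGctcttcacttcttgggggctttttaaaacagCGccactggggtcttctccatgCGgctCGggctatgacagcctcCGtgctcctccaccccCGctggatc
HOXA2: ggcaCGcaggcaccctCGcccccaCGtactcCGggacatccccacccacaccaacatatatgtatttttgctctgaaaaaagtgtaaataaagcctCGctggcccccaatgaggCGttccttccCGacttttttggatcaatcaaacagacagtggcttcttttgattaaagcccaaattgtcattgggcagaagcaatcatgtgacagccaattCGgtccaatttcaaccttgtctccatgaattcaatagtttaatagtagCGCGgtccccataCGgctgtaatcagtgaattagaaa
HOXB1: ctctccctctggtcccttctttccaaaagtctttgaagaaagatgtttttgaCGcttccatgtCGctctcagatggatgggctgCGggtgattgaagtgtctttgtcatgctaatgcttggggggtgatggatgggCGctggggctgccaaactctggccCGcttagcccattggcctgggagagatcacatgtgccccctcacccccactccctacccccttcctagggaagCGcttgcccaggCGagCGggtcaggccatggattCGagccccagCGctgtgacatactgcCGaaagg
HOXD4: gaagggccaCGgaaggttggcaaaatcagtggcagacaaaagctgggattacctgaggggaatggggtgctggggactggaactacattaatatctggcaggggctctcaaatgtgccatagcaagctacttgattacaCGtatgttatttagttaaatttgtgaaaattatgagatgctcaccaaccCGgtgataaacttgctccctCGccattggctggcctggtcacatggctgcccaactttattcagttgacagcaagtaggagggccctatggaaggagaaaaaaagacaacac
HOXD10: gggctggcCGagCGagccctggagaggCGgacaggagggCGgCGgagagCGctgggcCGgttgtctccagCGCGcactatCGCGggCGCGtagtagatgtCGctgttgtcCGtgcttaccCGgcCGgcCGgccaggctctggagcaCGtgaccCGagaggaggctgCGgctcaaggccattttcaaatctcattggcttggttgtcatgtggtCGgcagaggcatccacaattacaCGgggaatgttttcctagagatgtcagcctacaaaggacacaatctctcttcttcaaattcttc

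These sequences differ widely in CpG content. HOXA13 holds 44 CpG dinucleotides in its 300 bases and HOXC4 holds 15. Among the promoters of low accessibility, HOXD4 holds 4, HOXA2 and HOXB1 hold 11 each, and HOXD10 holds 23, more than HOXC4 at the other end of the range.

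In WT cells, HOX promoters covered a wide range of accessibility but most lay in the upper part of the genome-wide distribution. The median WT level of the 49 members was 28.2 CPM, and that of the 42 distinct rows was 25 CPM. Over all 27647 promoters tested the median was 16.7 CPM, and 40 members lay above it. The lowest member, HOXD10, had 5.50 CPM (percentile 32.1 of all promoters tested) and the highest, HOXC4, had 64.9 CPM (percentile 92.5). Counts per member and library lay between 39 and 1135, and all 49 members passed the filter on low counts.

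**Figure D1:**
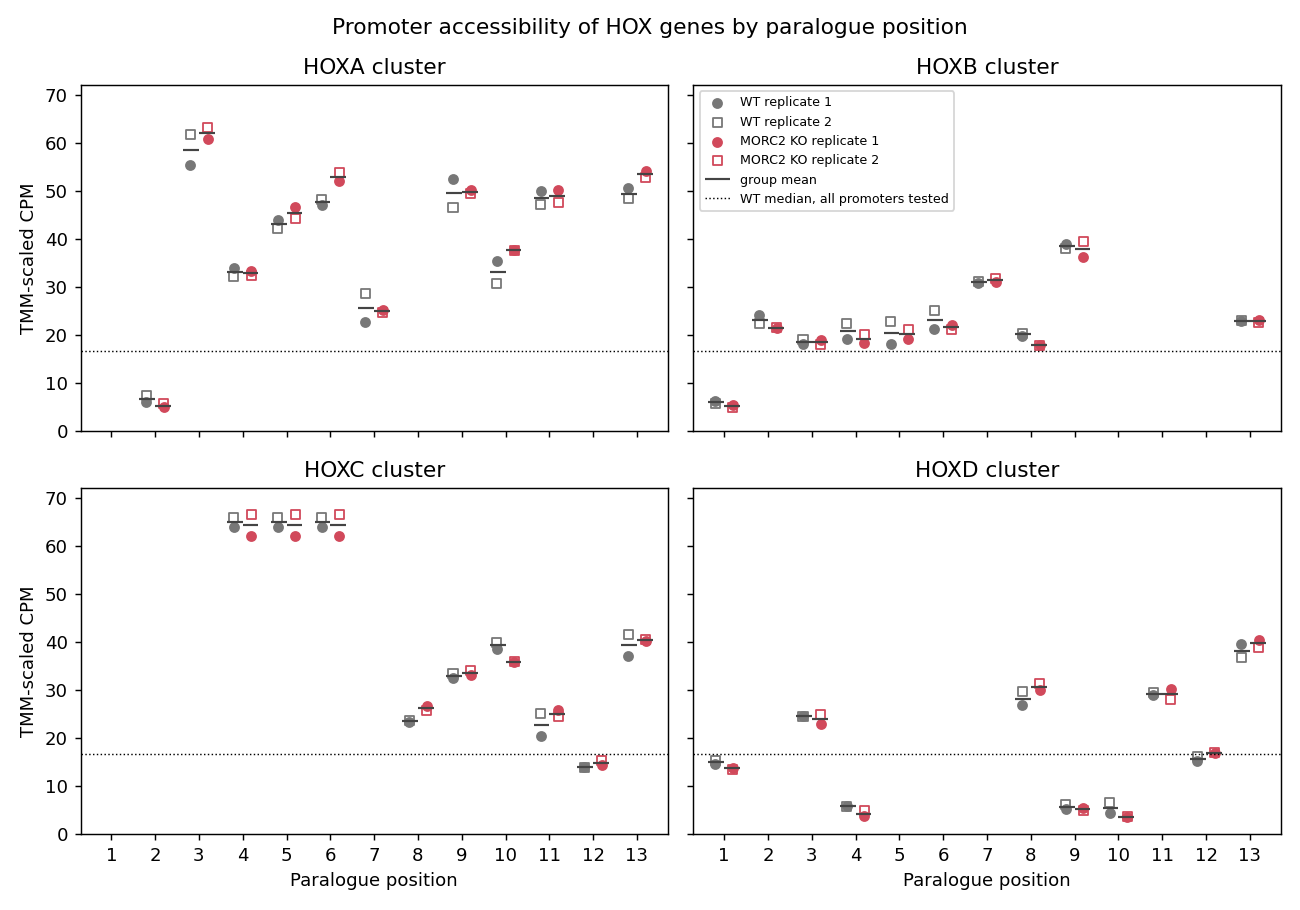
Accessibility of 38 HOX coding promoters in TMM-scaled CPM (vertical axis) by paralogue position (horizontal axis), with 1 panel per cluster, 1 point per library and bars for the mean of each group of 2 libraries. The dotted line marks the WT median of all promoters tested (16.7 CPM). WT and KO points lie close together at every position, and HOXA2, HOXB1, HOXD4, HOXD9 and HOXD10 lie lowest, below 10 CPM in each library.

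Levels are given first by cluster. The median WT level was 37.6 CPM in HOXA, 38.8 CPM in HOXC, 20.6 CPM in HOXB and 15.7 CPM in HOXD. These medians count a shared window once for each of its members. In HOXC, 11 members stand for 8 distinct rows, and the highest window enters for HOXC4, HOXC5 and HOXC6 alike. The medians of HOXA and HOXC are therefore not ranked. Summed over distinct rows, HOXA had 503 ± 5.62 CPM in WT (SD, n = 2) from 14 rows, HOXC had 262 ± 13.6 CPM from 8, HOXB had 245 ± 5.37 CPM from 11 and HOXD had 168 ± 3.68 CPM from 9. CPM are not corrected for the copy number of the chromosomes, which was not measured here, so differences between clusters are given as levels only.

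The HOXA cluster was accessible along most of its length. Its highest rows were HOXA3, a gene of thymus and parathyroid development, with 55.4 and 61.7 CPM in the WT libraries, and HOXA9, a regulator of blood stem cells, with 52.5 and 46.6 CPM. HOXA13 (49.4 ± 1.46 CPM), which patterns the distal limb and the urogenital tract, HOXA11 (48.5 ± 2.04 CPM), which acts in kidney and uterus development, and HOXA6 (47.6 ± 0.651 CPM) followed closely. The differences among HOXA9, HOXA13, HOXA11 and HOXA6 were smaller than the gap between the WT libraries at HOXA9. HOXA5, which acts in lung development, had 43.0 ± 1.30 CPM, and HOXA4 and HOXA10 had 33.0 CPM each.

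Only HOXA7 (25.7 ± 4.28 CPM) and HOXA2 lay below these among the HOXA coding genes. HOXA2, which directs the identity of the second pharyngeal arch, had 6.13 and 7.31 CPM in WT, although HOXA4 had 33.9 and 32.1 CPM. HOXA2 was thus the 1 HOXA member below 10 CPM.

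The HOXB cluster was more even. HOXB9 (38.9 and 38.0 CPM in WT) and HOXB7 (30.8 and 31.1 CPM) were its highest rows, and the WT libraries of HOXB9 lay above those of every other HOXB member. HOXB2, HOXB6, HOXB13, HOXB4, HOXB5, HOXB8 and HOXB3 lay in a band from 18.6 to 23.2 CPM. Its width is comparable with the gap between the WT libraries at HOXB5 (18.2 and 22.7 CPM), so the full order of these genes is not resolved. In both WT libraries, however, HOXB2 and HOXB13 lay above HOXB8 and HOXB3. HOXB13, a prostate and hindgut gene separated from the rest of the cluster, was within this band at 23.0 ± 0.213 CPM. HOXB1, which specifies the fourth rhombomere of the hindbrain, stood apart at 6.23 and 5.76 CPM.

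In HOXC the shared start of HOXC4, HOXC5 and HOXC6 had 63.9 and 65.9 CPM in WT, above all other members in both libraries. HOXC13, a gene of hair and nail formation, had 39.4 ± 3.23 CPM, and HOXC10, a gene of lumbar motor neurons and hindlimb, had 39.3 ± 0.877 CPM. HOXC9 had 33.0 ± 0.667 CPM, while HOXC8 (23.5 ± 0.237 CPM) and HOXC11 (22.8 ± 3.31 CPM) did not differ beyond the spread at HOXC11. HOXC12 was the lowest, with 14.0 and 13.8 CPM. No HOXC member fell to the level of HOXA2 or HOXB1.

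The HOXD cluster alternated between windows of higher and of lower accessibility. HOXD13, required for digit formation, had 39.5 and 36.7 CPM in WT, and HOXD11, which acts with HOXA11 in kidney and forearm, had 28.9 and 29.5 CPM. HOXD10 and HOXD9, which act in the limb and the lumbar spinal cord, then dropped to 5.50 ± 1.61 and 5.64 ± 0.636 CPM, HOXD8 returned to 28.2 ± 1.96 CPM, HOXD4 dropped to 5.79 ± 0.0398 CPM, and HOXD3 was again at 24.5 ± 0.0222 CPM. HOXD12 and HOXD1 were intermediate at 15.7 and 15.0 CPM. The 3 low HOXD windows overlapped one another in WT and cannot be ranked.

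Paralogue position was only loosely related to level. The 8 anterior genes (positions 1 to 3) had a median WT level of 20.9 CPM, the 15 central genes (positions 4 to 8) of 28.2 CPM and the 16 posterior genes (positions 9 to 13) of 33.0 CPM. Within clusters, Spearman's rho between position and WT level was 0.34 in HOXA over 11 genes, 0.48 in HOXB over 10, 0.35 in HOXD over 9 and −0.66 in HOXC over 9, where 3 central genes share the highest row. These are descriptions across promoters of the same libraries, some of which share fragments. Positions follow the gene numbers, so HOXA3 and HOXB3 count as anterior despite where their rows stand.

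No HOX promoter passed the test for a difference between MORC2 KO and WT. None of the 49 members had an adjusted p under 0.05 in edgeR's quasi-likelihood test with Benjamini-Hochberg adjustment over all 27647 promoters, against 1229 (4.45%) of all promoters tested. At an unadjusted p under 0.05 there were 3 members (HOXD10, HOXA10 and HOXA6), whereas 20.3% of all promoters met that level, and DESeq2 gave no member at either level. The median log2 fold change of the members, KO minus WT, was −0.01 and single values ranged from −0.60 to 0.19. For all promoters tested the median was −0.02. Total count scaling moved these medians to 0.13 and 0.12, so that changes are read relative to the median of all promoters.

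The median absolute log2 difference was 0.099 between KO and WT, 0.066 within KO and 0.083 within WT, where the first compares means of 2 libraries and the others single libraries. The difference between KO and WT exceeded both replicate differences at 15 of 49 members, against 36.6% of all promoters tested. The 2 groups did not overlap at 21 members (50.6% of all promoters tested did not): KO was above WT at 12 and below WT at 9, against 25.2% and 25.4% of all promoters. The absolute log2 fold change was under 0.2 at 45 of 49 members, and the 95% interval contained 0 at 46 and lay within ±0.5 at 44. Without the 5 members below 10 CPM in WT, the intervals spanned −0.39 to 0.35.

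**Figure D2:**
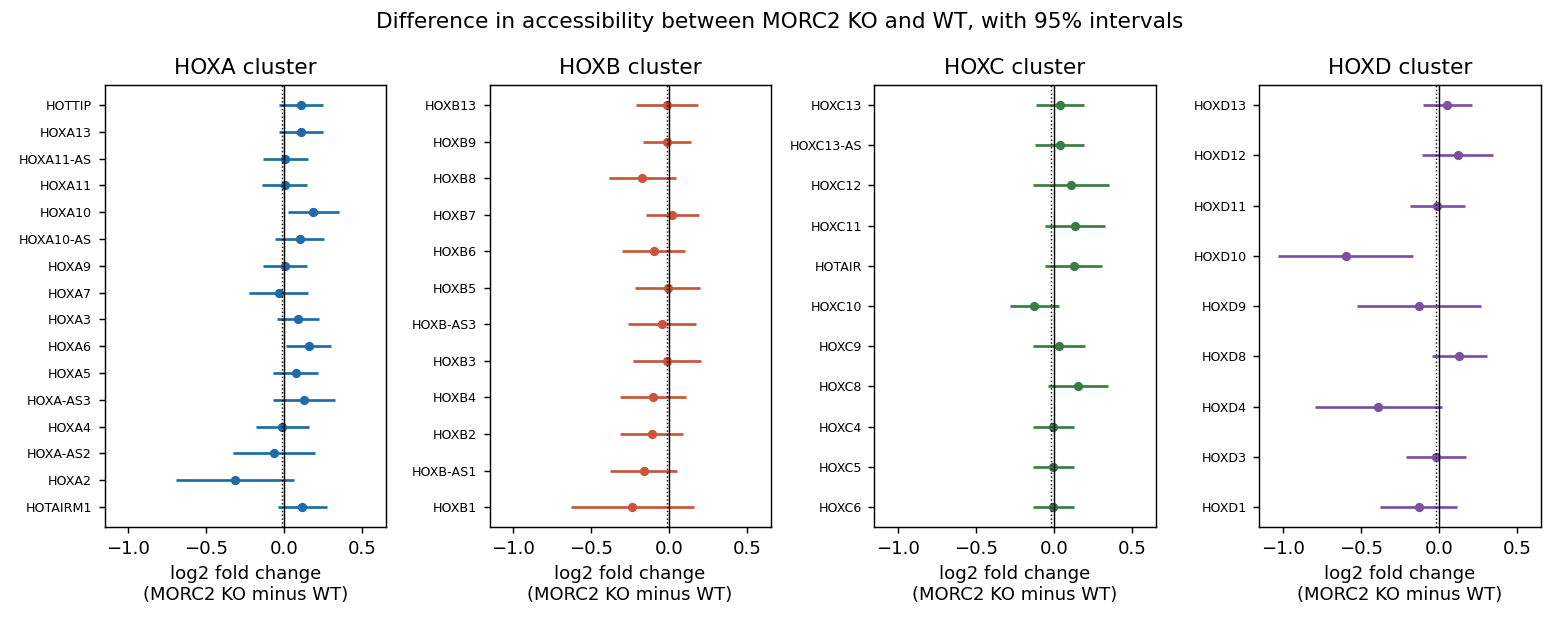
Log2 fold change of accessibility (horizontal axis, MORC2 KO minus WT) of 48 HOX members in gene order with posterior genes at the top, with 1 panel per cluster. Points are edgeR estimates from 2 against 2 libraries and bars their 95% intervals, the solid line marks 0 and the dotted line the median of all promoters tested (−0.02). Most points lie within ±0.2, and only HOXD10, HOXA10 and HOXA6 have intervals that do not contain 0.

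The pattern along the clusters was likewise kept. Across the 42 distinct rows, Spearman's rho between mean WT and mean KO level was 0.99, a description across promoters. It was not computed for all promoters tested, so it is not read as a trait of HOX clusters. The summed level of HOXA was 531 and 523 CPM in KO and 507 and 499 CPM in WT, so that KO was at 105% of WT. HOXB had 231 and 236 CPM in KO against 241 and 248 CPM in WT (95.5%). HOXC (268 and 269 CPM in KO, 253 and 272 CPM in WT) and HOXD (167 CPM in each KO library, 165 and 170 CPM in WT) overlapped between the groups. The sums of HOXA and HOXB did not overlap between the groups. They were not tested, since an exact two-sided permutation test of 2 against 2 libraries cannot give a p below 0.33.

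By cluster, medians lay on either side of 0. The median log2 fold change of HOXA was 0.09, with 13 of 17 members above 0, but 0.0134 with loess offsets and 0.22 with total count scaling. That of HOXB was −0.07, with 11 of 12 below 0, but 0.07 with total count scaling and −0.0094 without WT replicate 2. Over all promoters tested, 53.3% were below 0. Of those at 10 to 30 CPM, where most HOXB members lay, 44% were below 0, while 73.2% of those above 30 CPM were above 0. HOXC had a median of 0.04, with loess offsets and the omission of WT replicate 1 each turning it to −0.03, and HOXD one of −0.02, with total count scaling turning it to 0.11. By position, the medians were −0.07 for anterior, −0.01 for central and 0.02 for posterior genes, of which the first 2 were positive with total count scaling and the last was negative with loess offsets and at a mean count of at least 50. The central median was 0.06 without KO replicate 1, 0.02 without WT replicate 2 and −0.06 without KO replicate 2. The smallest adjusted p was 0.174 in HOXA, 0.37 in HOXB and 0.359 in HOXC.

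Of all members, HOXD10 came closest to the threshold. It held 39 and 62 fragments in KO and 42 and 60 in WT, which corresponds to 3.58 and 3.64 CPM in KO and to 4.36 and 6.65 CPM in WT. Both KO libraries were thus below both WT libraries, but the WT libraries differed from each other by more than WT replicate 1 differed from KO. edgeR's quasi-likelihood test gave an adjusted p of 0.0906 for a log2 fold change of −0.60 (95% interval −1.03 to −0.17). At an adjusted p under 0.1, where 8.13% of all promoters would be called, HOXD10 was the 1 member to pass. The value rested on WT replicate 2: the log2 fold change was −0.27 (adjusted p 0.713) without it and −0.88 (adjusted p 0.0208) without WT replicate 1.

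The other 4 members of low accessibility also had negative fold changes. HOXD4, a gene of cervical vertebrae and hindbrain, had 3.76 and 4.87 CPM in KO and 5.82 and 5.76 CPM in WT, a log2 fold change of −0.39 with an adjusted p of 0.271. HOXA2 had 4.95 and 5.69 CPM in KO and 6.13 and 7.31 CPM in WT (log2 fold change −0.31), and HOXB1 had 5.50 and 4.81 CPM in KO and 6.23 and 5.76 CPM in WT (log2 fold change −0.24). At these 3 promoters both KO libraries lay below both WT libraries, as they did at 25.4% of all promoters tested. Among the 1639 promoters tested with mean levels of 4.55 to 6.02 CPM, 771 were separated in this way. In addition, 1 library could move the values widely. Leaving out each library in turn gave −0.61 to −0.23 at HOXD4, lowest without KO replicate 2, −0.44 to −0.18 at HOXA2, nearest to 0 without WT replicate 2, and −0.30 to −0.12 at HOXB1, nearest to 0 without KO replicate 2. At HOXD9 the groups overlapped, with 5.41 and 4.98 CPM in KO and 5.19 and 6.09 CPM in WT, and its log2 fold change of −0.13 turned positive with total count scaling and with loess offsets.

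The same direction was seen in promoters of low accessibility at large. The 5 HOX members below 10 CPM had a median log2 fold change of −0.31. The 1639 promoters tested within the same range of mean level, 4.55 to 6.02 CPM, had a median of −0.20, 82.0% of them were below 0, and 33 were called lower and 1 higher. At the other end, the 23 members above 30 CPM had a median of 0.04 with 73.9% above 0, against a median of 0.07 and 73.2% for all promoters above 30 CPM. Between these levels the HOX median lay on the other side of 0 from that of all promoters, by less than the median SE of a single member there (0.102). Most HOXB members, with a cluster median of −0.07, lay at these levels. The 21 members at 10 to 30 CPM had a median of −0.01 with 33.3% above 0. For all promoters at 10 to 30 CPM the median was 0.02, with 56% above 0. Spearman's rho between mean level and log2 fold change was 0.57 over the 42 distinct HOX rows and 0.54 over all promoters tested. These correlations run across promoters of 4 shared libraries. With loess offsets, which remove the trend with abundance, the log2 fold changes of HOXD10, HOXD4, HOXA2 and HOXB1 were −0.40, −0.20, −0.16 and −0.07.

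**Figure D3:**
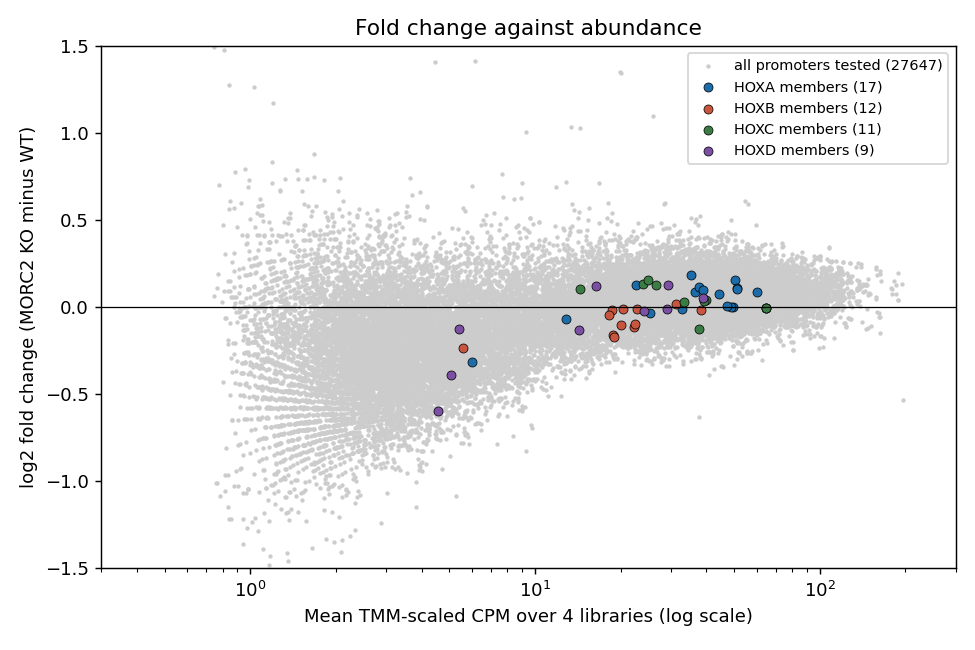
Log2 fold change (vertical axis, MORC2 KO minus WT) against mean TMM-scaled CPM over the 4 libraries (horizontal axis, log scale) for all 27647 promoters tested (grey) and for the HOX members by cluster (coloured). Points beyond the axes are not shown. The 5 HOX members at the left lie below 0 within the grey cloud, which also lies mostly below 0 there. The other members lie within ±0.2, as does HOXD9 at the left.

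Among the more accessible members, HOXA10 and HOXA6 had the smallest p. HOXA10, which acts in uterine and posterior skeletal development, had 37.6 CPM in each KO library and 35.4 and 30.6 CPM in WT, which edgeR's quasi-likelihood test estimated as a log2 difference of 0.19 ± 0.083 (SE) with an adjusted p of 0.174. HOXA6 had 52.1 and 53.7 CPM in KO and 47.1 and 48.1 CPM in WT, or 0.16 ± 0.072 (SE) on the log2 scale with an adjusted p of 0.195. Both were higher in each KO library than in each WT library. The HOXA10 value was 0.09 (adjusted p 0.725) without WT replicate 2 and 0.30 (adjusted p 0.0526) without WT replicate 1.

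In HOXB and HOXC the members of largest fold change were HOXB1, given above, and HOXC8. HOXC8, a gene of the brachial spinal cord and ribs, had 26.7 and 25.8 CPM in KO and 23.4 and 23.7 CPM in WT, a log2 fold change of 0.15 with an adjusted p of 0.365. HOXC10 had 35.9 CPM in each KO library and 38.6 and 39.9 CPM in WT (log2 fold change −0.13, which was 0.01 with total count scaling, adjusted p 0.359). HOXB8 had 18 and 17.8 CPM in KO and 19.8 and 20.4 CPM in WT (log2 fold change −0.17, adjusted p 0.37). The groups did not overlap at any of these, and none passed the test.

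Several of the most accessible windows overlapped between the groups. The shared HOXC4 window had 62.1 and 66.6 CPM in KO, on either side of its WT values, and a log2 fold change of −0.01 (95% interval −0.14 to 0.13). HOXA3 had 60.8 and 63.2 CPM in KO, HOXA9 50.2 and 49.5 CPM, HOXB9 36.2 and 39.5 CPM, HOXB7 31.1 and 31.7 CPM, HOXD13 40.5 and 38.8 CPM and HOXD11 30.3 and 28.0 CPM, each overlapping its WT values. HOXA13 had 54.0 and 52.7 CPM in KO and 50.5 and 48.4 CPM in WT (log2 fold change 0.11, adjusted p 0.397). Of the lowest windows in HOXC, HOXC11 overlapped between the groups, with 25.8 and 24.4 CPM in KO and 20.5 and 25.1 CPM in WT. HOXC12 did not overlap, with 14.4 and 15.4 CPM in KO and 14 and 13.8 CPM in WT (log2 fold change 0.11), and did not pass the test.

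The 10 antisense and long noncoding rows had WT levels between 13.1 and 49.2 CPM, with a median of 30.8 CPM, and none was called or had an unadjusted p under 0.05 in edgeR. HOTAIR, transcribed from the HOXC cluster opposite to HOXC11 and known for its association with Polycomb complexes, had 30.0 and 26.0 CPM in KO and 22.6 and 28.2 CPM in WT. The groups overlapped, and the adjusted p was 0.466 at a log2 fold change of 0.12, which turned to −0.03 without WT replicate 1. HOTTIP, which lies at the posterior end of HOXA and binds the Trithorax subunit WDR5, had 53.3 and 52.7 CPM in KO and 50.2 and 48.2 CPM in WT (log2 fold change 0.11, adjusted p 0.401), values that are nearly those of HOXA13.

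HOTAIRM1, a transcript known from myeloid cells, had 39.0 and 39.3 CPM in KO and 35.9 and 36.4 CPM in WT (log2 fold change 0.12, adjusted p 0.418). HOXA10-AS had 40.4 and 40.3 CPM in KO and 38.8 and 36.4 CPM in WT, and HOXA-AS3 had 25.3 and 22.4 CPM in KO and 22.4 and 20.8 CPM in WT. HOXA11-AS (47.2 ± 3.31 CPM in WT) and HOXC13-AS (38.8 ± 3.81 CPM) had log2 fold changes of 0.01 and 0.04. Below 0 were HOXB-AS1, with 16.9 and 18.5 CPM in KO and 21.3 and 18.6 CPM in WT, HOXA-AS2, with 13.7 and 11.7 CPM in KO and 12.6 and 13.6 CPM in WT, and HOXB-AS3, with 18.5 and 17.4 CPM in KO and 18.1 and 18.8 CPM in WT. Among these 3, the groups separated at HOXB-AS1 alone, and there by 18.5 against 18.6 CPM. Its log2 fold change was −0.16 (adjusted p 0.397), −0.06 without WT replicate 1 and −0.25 without WT replicate 2. The values of HOXA-AS2 and HOXB-AS3 turned positive with total count scaling.

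Promoters of genes that regulate HOX clusters or act with HOX proteins were read from the same fit. Of 53 such genes, none was called by edgeR and 10 had an unadjusted p under 0.05 (20.3% of all promoters did), while DESeq2 called none and gave 3. They had a median log2 fold change of 0.0011 and a median WT level of 41.2 CPM. The 9 HOX cofactors of the PBX, MEIS and PKNOX families, which bind DNA together with HOX proteins, had a median log2 fold change of −0.03, and PBX4 (−0.28, adjusted p 0.0529) and MEIS1 (0.20, adjusted p 0.0551) came closest to the threshold. The 24 Polycomb genes had a median of −0.02, the 10 Trithorax genes of 0.05 and the 7 genes of CTCF, cohesin and the insulator factor MAZ of 0.05. The 3 CDX genes, which activate central HOX genes in the embryo, had a median of −0.39, with CDX4 (4.47 CPM in WT) and CDX1 (8.07 CPM) at the low levels where most promoters were below 0. With other fits up to 4 of the 53 were called: RBBP4, MAZ, CBX8 and PBX4 with loess offsets, where 1.42% of all promoters were called.

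Of 12 genes that flank the clusters, 1 was called, higher in KO (3.45% of all promoters were). LNPK, which lies beyond EVX2 on the posterior side of HOXD, held 522 and 818 fragments in KO and 423 and 317 in WT, or 47.9 and 48 CPM in KO and 43.9 and 35.1 CPM in WT. By edgeR's quasi-likelihood test KO was higher by 0.27 ± 0.076 (SE) on the log2 scale, adjusted p 0.0161, although the WT libraries differed from each other by more than WT replicate 1 differed from KO. The adjusted p was 0.538 without WT replicate 2 (log2 fold change 0.13) and 0.231 without KO replicate 2 (0.28). With loess offsets it was 0.15 (0.21) and with total count scaling 0.452 (0.41). DESeq2 gave no adjusted p with its independent filter and 0.854 (0.28) without it, a setting chosen after seeing the data. EVX2, between LNPK and HOXD13, had 5.59 ± 0.709 CPM in WT and a log2 fold change of −0.43 with an adjusted p of 0.225. MTX2, at the anterior side of HOXD, had 29.2 ± 2.54 CPM in WT and a log2 fold change of 0.12 (adjusted p 0.428).

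At the other clusters, SKAP2, at the anterior side of HOXA (47.5 CPM in WT), and EVX1 beside HOXA13 (10.7 CPM) had log2 fold changes of −0.01 and −0.05. SKAP1 beside HOXB1 (3.16 CPM), and PRAC1 and PRAC2 beside HOXB13 (3.77 and 4.88 CPM), had mean WT levels below those of every HOX member, while TTLL6 reached 21.8 CPM. SMUG1 and the shared start of CBX5 and HNRNPA1, beside HOXC, had 29.3 CPM and 102 to 103 CPM.

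HOX promoters were also set beside other homeobox genes and cell type markers. The 75 other homeobox genes listed had a median WT level of 25.0 CPM (range 3.03 to 106) and a median log2 fold change of 0.01. The HOX members had a median WT level of 28.2 CPM, but 25 CPM with shared rows counted once, so the 2 sets did not differ in median level. Of these, 2 were called higher in KO (ISL1 and BARX2) and 1 lower (PAX7), where 3.45% and 0.995% of all promoters were. The 8 markers of kidney development had a median WT level of 13.8 CPM, with GATA3 at 30.1 CPM and PAX8 at 4.81 CPM, so only some of the markers of the labelled origin had accessible promoters. The 9 markers of other cell types had a median of 4.75 CPM, from 1.71 CPM at PTPRC of leukocytes to 19.1 CPM at APOA2 of hepatocytes. ALB, also of hepatocytes, had 2.05 CPM, HBB of erythroid cells 2.31 CPM and GFAP of astrocytes 10.5 CPM.

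**Figure D4:**
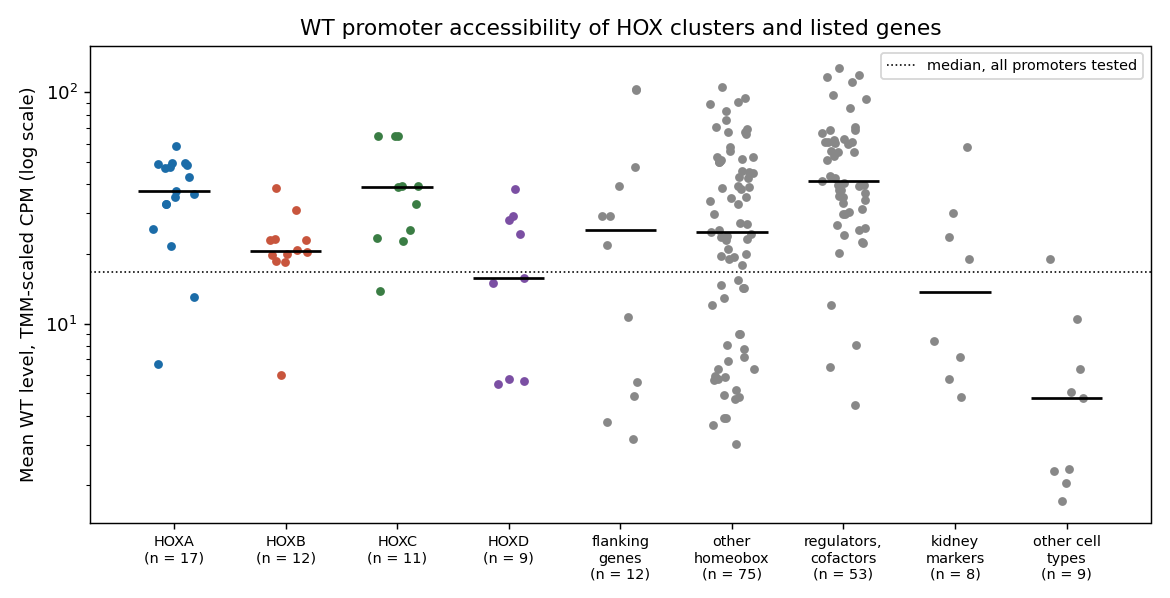
Mean WT level in TMM-scaled CPM (vertical axis, log scale) of the members of each HOX cluster and of the listed comparison genes (horizontal axis), with 1 point per promoter and a bar for the median of each set. The dotted line marks the median of all promoters tested (16.7 CPM). HOXA and HOXC members lie mostly above the line, HOXD members on both sides of it, and markers of other cell types mostly below it.

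The level of HOX promoters was also set beside their CpG content. RefSeq sequences of 300 bases were at hand for 26 members. Of these, 22 lay at the outermost gene start, which was taken to match the counted window. Their median ratio of observed to expected CpG was 0.864, against 0.579 over 35116 RefSeq promoter sequences, and their median GC content was 55.5% against 58.7%. The 35116 sequences are an unlike set, as they include starts other than the outermost. The 5 members with a ratio under 0.6 had a median WT level of 13.1 CPM and the 17 others of 33 CPM. For all 17068 tested promoters with a sequence at the outermost start the medians were 4.86 and 36.4 CPM on either side of 0.6. Of these promoters, 10353 had a ratio of at least 0.6. Spearman's rho between the ratio and WT level was 0.39 over the 22 members and 0.63 over all.

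HOXD10 stood out from this relation, as a description chosen after its values were seen. Its promoter, printed above, had a ratio of 0.860, close to the median of the members, yet 5.50 CPM in WT. HOXA2 likewise had a ratio of 0.706 at 6.72 CPM. HOXD4 (0.244) and HOXB1 (0.436) combined low CpG content with low accessibility, whereas HOXA-AS2 (0.322) and HOXB-AS1 (0.323) had 13.1 and 19.9 CPM at similar ratios. HOXA9 had the highest ratio, 1.27, at 49.6 CPM.

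**Figure D5:**
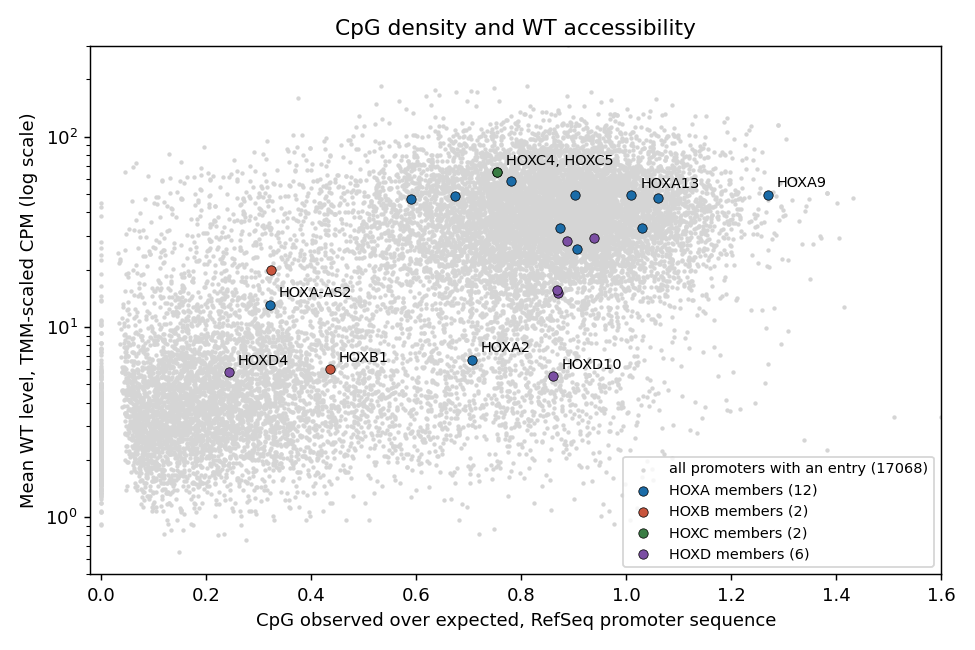
Mean WT level in TMM-scaled CPM (vertical axis, log scale) against the ratio of observed to expected CpG in the RefSeq promoter sequence (horizontal axis) for 17068 tested promoters (grey) and 22 HOX members by cluster (coloured). Points beyond the axes are not shown. HOXD10 and HOXA2 are the lowest of the coloured points with a ratio above 0.6.

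Short motifs were searched on both strands of the same 22 sequences, overlapping matches included. Shares over all RefSeq promoter sequences include starts other than the outermost. CCAAT, the letters of the CCAAT box, occurred in 16 of 22, against 34.6% of all RefSeq promoter sequences, with 4 matches in HOXA2. GGGCGG, the core of the GC box bound by SP factors, occurred in 9 of 22 (45% of all) and TATAAA, the site of the TATA-binding protein, in 3, namely HOXA3, HOXA9 and HOXA10 (11.5% of all). TGATNNAT, the form of the joint PBX and HOX site, occurred in HOXA2, HOXB1 and HOXD11 (7.4% of all). HOXC4 and HOXC5 share 1 sequence, and those of HOXA13 and HOTTIP and of HOXA11 and HOXA11-AS overlap, so the members are not independent. A match describes these letters in this window and not a bound site.

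The total promoter count ranged from 9435801 to 15152636 per library, and mitochondrial rows took between 20.6% and 35.1% of it, least in KO replicate 2. The common dispersion was 0.0018, a coefficient of variation of 4.24% between replicates beyond the noise of counting, which adds to it most at low counts. The promoter of MORC2 itself had 27.6 CPM in WT and 37.2 CPM in KO (log2 fold change 0.43, adjusted p 0.000279), a window shared with TUG1 that does not measure the edit. Because cells were analysed in bulk, a lower level in fewer cells and a lower level in all cells cannot be told apart for any HOX promoter.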

How the data were processed

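ATAC-seq libraries of 2 WT and 2 MORC2 KO samples of HEK293T were grouped by GEO's labels. The authors used Trim Galore for trimming and bowtie2 for alignment to CHM13, a telomere-to-telomere assembly, and filtered poorly mapped or improper pairs and, with Picard, duplicates. The deposited table holds raw counts per promoter and library for 28775 NCBI Gene IDs. The submitters' processing notes name featureCounts and Subread 2.0.6. Whether fragments were counted by midpoint in this table is not given in the sources used here. The deposited counts carry no molecular identifiers.

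Symbols came from a RefSeq table on GRCh38.p14 (28763 IDs matched), which gave names and order only. As this build differs from that of the alignment, overlaps with the authors' WT peak list were not analysed here and that list was not used.

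Rows were filtered with filterByExpr (1128 removed, 27647 tested) and scaled by TMM. The 2 groups were compared with edgeR 4.0.16 in R 4.3.3 (quasi-likelihood F-test, legacy fit, no covariates), with a two-sided p, Benjamini-Hochberg adjustment over all rows tested and calls at an adjusted p under 0.05. Standard errors come from the F statistics. The fit was tested on simulated data.

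Values of 1 member and 1 kidney marker are not reported here. The members and gene lists were chosen with earlier results of these data known. Values per library are given for the 2 highest and 2 lowest members of each cluster in WT, those with the smallest p and largest fold change in each cluster, and noncoding members. HOXA6, HOXD4 and HOXA13, the remaining noncoding rows, and the WT values of HOXA4 and HOXB5 were added after their values were seen. Alternatives covered scaling, filters, a replicate block, the edgeR 4 fit, DESeq2 1.42.0, limma 3.58.1 loess offsets, the threshold and leaving out each library. Rows shared between members counted once and DESeq2 without its independent filter were chosen after seeing the data.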

Additional observations from a re-analysis of the deposited data

How the results depend on the processing

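With 2 libraries a group and counts from 39 upwards, the least accessible HOX promoters had wide intervals on the log2 scale (−0.63 to 0.16 at HOXB1). Of the 1639 promoters of that level, 33 were called lower and 1 higher. No HOX member was called under any scaling, filter or fit, and with the replicate block 0 were called, with a median of −0.01. Libraries of equal replicate number did not deviate together (correlation −0.000266) and share only a number. HOXD10 was the 1 member called at an adjusted p under 0.1 (8.13% of all promoters were), and leaving out libraries gave 0 to 1 called, HOXD10 without WT replicate 1. Over all promoters, 1229 calls became 1279 with size factors of DESeq2, 20 with total count scaling, 1241 with nuclear rows only, 393 with loess offsets, 1243 without a filter, 787 at a mean count of at least 50, 765 with the replicate block, 841 with the edgeR 4 fit and 6 with the DESeq2 test (7 without its independent filter, and 861, 41, 1637 and 230 without KO replicates 1 and 2 and WT replicates 1 and 2). DESeq2 gave an adjusted p for 10 of 49 members with its independent filter and for all without it.

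Regulator and cofactor promoters called rose from 0 to 4 with loess offsets, 3 at a mean count of at least 50 and 1 with the edgeR 4 fit, and were 0 to 3 when libraries were left out (MAZ, CBX8 and MEIS1 without WT replicate 1). With total count scaling the median log2 fold change was 0.13 for all members, 0.22 for HOXA, 0.0655 for HOXB, 0.168 for HOXC, 0.114 for HOXD, and 0.0692, 0.126 and 0.153 for anterior, central and posterior genes, around a median of 0.12 for all promoters. With loess offsets that of HOXA was 0.0134, and at a mean count of at least 50 that of anterior genes was −0.101, with −0.0941 to −0.0509 when libraries were left out. Median WT levels of HOXA, HOXB, HOXC and HOXD with nuclear rows only, where the total is smaller, were 54.4, 29.8, 56.1 and 22.7 CPM. With coding genes only they were 43.0 CPM in HOXA and 21.9 CPM in HOXB, and with total count scaling 15.0 CPM in HOXD.

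Some fold changes turned sign, at members that were not called. With total count scaling the log2 fold changes were 0.00663 at HOXC10, 0.13 at HOXC4, HOXC5, HOXC6 and HOXD11, 0.12 at HOXB9, 0.094 at HOXB-AS3, 0.0163 at HOXD9 and 0.0757 at HOXA-AS2. With loess offsets they were −0.0223 at HOXC13, −0.0266 at HOXC13-AS, −0.0337 at HOXB7, −0.00811 at HOXD13, 0.0463 at HOXD9, −0.0653 at HOXA9, −0.0658 at HOXA11 and −0.0603 at HOXA11-AS. At a mean count of at least 50 they were −0.0144 at HOXB7, −0.0316 at HOXA9, −0.0328 at HOXA11 and −0.0282 at HOXA11-AS. When libraries were left out in turn, they ranged from −0.0571 to 0.0561 at HOXC4, HOXC5 and HOXC6, −0.0809 to 0.0555 at HOXB9, −0.075 to 0.0127 at HOXB-AS3, −0.041 to 0.0597 at HOXD11, −0.146 to 0.0689 at HOXA-AS2, −0.0429 to 0.125 at HOXC13, −0.0635 to 0.137 at HOXC13-AS, −0.00998 to 0.287 at HOXC11, −0.0314 to 0.288 at HOTAIR, −0.078 to 0.0946 at HOXA9, −0.039 to 0.0535 at HOXA11 and −0.0613 to 0.082 at HOXA11-AS. The cause of these changes was not tested, beyond the construction of each scaling.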
